A study of Homo sapiens with 6 samples.

Results

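The bZIP factors (AP-1, ATF and CREB, MAF), the Krüppel-like factors (KLF), the EGR zinc finger factors and the IER immediate early genes were examined in Hs578T cells after transfection with siRNA against CSRP2. Members were taken by name from the array's probe-to-gene table, and symbols with a hyphen were left out, which gave 51 of 14884 named genes. They comprised 17 KLF genes, 14 ATF and CREB genes, 7 AP-1 genes (FOS, FOSB, FOSL1, FOSL2, JUN, JUNB and JUND), 4 MAF genes, 3 EGR genes and 3 IER genes. The remaining 3, ATF7IP, ATF7IP2 and IER3IP1, share only the start of a name: ATF7IP and ATF7IP2 encode chromatin partners of transcription factors, and IER3IP1 encodes a small endoplasmic reticulum protein. The name rule also covers the NR4A, BATF, CEBP and BACH genes and NFIL3, for which 0 genes were named in the table used here.

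Hs578T is an established human breast cancer line, kept here in DMEM with serum and insulin. Each of 2 groups held 3 arrays, numbered 1 to 3: siControl cells received a non-targeting siRNA and siCSRP2 cells an siRNA against CSRP2, an actin-binding LIM protein. Both went through the same lipid transfection, were moved to smaller wells after 24 h and gave RNA 48 h after that, so each array shows cells some days after transfection and not the first minutes of a response. Nothing in the labels ties a replicate to its own culture, so p-values speak only for the scatter among these arrays and that scatter may be technical. CSRP2 itself measured 3.69, 4.01 and 4.35 on siControl arrays and 3.25, 3.76 and 4.26 on siCSRP2 arrays. These values overlapped, although same-numbered arrays differed by -0.44, -0.24 and -0.09, each lower on siCSRP2. The difference did not pass (limma adjusted p = 0.583, and 0.188 with the replicate block described below). The level of the target thus gives no check of the groups, and siCSRP2 stands throughout for arrays with that label. Of 11 mesenchymal markers measured, 5 fell (45.5%, beside 6.54% of all genes), among them AXL from a mean of 8.32 to 6.59 and VIM from 8.04 to 7.22. Of 17 epithelial markers 0 passed. At an unadjusted p under 0.05, 3 were higher (17.6%, beside 6.32% of all genes) and 1 lower (5.88%, beside 17.4%). With the replicate block 7 mesenchymal markers fell (63.6%, beside 13.1% of all genes). So did 1 epithelial marker (5.88%), the keratin KRT18 (-0.74, adjusted p = 0.00746). The part of this marker shift in the results below was not tested. The leukocyte and endothelial markers CD14, PECAM1, VWF and KDR had means over the 6 arrays of 2.33 to 2.64, while the fifth on that list, CD68, a lysosomal protein of macrophages, averaged 7.60 on siControl and 8.24 on siCSRP2 arrays (adjusted p = 0.0778, and 0.00971 without siControl 3). siControl 3 stood apart from its group: it correlated with the siCSRP2 arrays (mean r = 0.966 across genes) as well as with the other controls (0.967), so counts are also given without it.

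Most of these factors sit at the receiving end of signalling cascades. Immediate early genes such as FOS, JUN, EGR1 and IER3 are switched on within minutes of growth factor or stress signals, without new protein synthesis, and their transcripts are short-lived. Their bZIP products pair through a leucine zipper: FOS and JUN proteins form AP-1, ATF and CREB proteins bind cAMP response elements, and small MAF proteins pair with other bZIP partners. KLF proteins bind GC-rich and CACCC elements through zinc fingers and can activate or repress.

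All values below are log2 signals, so a difference of 1 is a doubling, and "adjusted p" is limma's p after Benjamini-Hochberg adjustment over all 14884 genes, passed at under 0.05. Same-numbered arrays of the groups deviated together across all genes (r = 0.305, 0.187 and 0.321), while unlike-numbered arrays gave r from -0.256 to 0.052. A second fit that also takes out the replicate number, called the replicate block, is therefore given beside the first. Over the members alone same-numbered arrays gave 0.37, 0.01 and 0.33, and unlike-numbered arrays ran from -0.38 to 0.18. Pair 2 thus did not stand out as a pair for these genes. "Rose" and "fell" without further words refer to the fit without the block.

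CREB5, MAFF and IER3IP1 rose in siCSRP2 cells, and 0 of the 51 members fell. That is 5.88% of members rising, where 0.8% of all genes rose, and 0% falling, where 6.54% of all genes fell. With the replicate block, 10 members rose (19.6%, beside 2.67% of all genes) and 2 fell (3.92%, beside 13.1% of all genes). The block added rises of KLF4, KLF3, IER3, JUN, JUNB, FOSB and ATF3, and falls of KLF9 and CREB3L2. Without siControl 3, 11 members rose (21.6%, beside 2.87% of all genes) and 1 fell, ATF7IP (1.96%, beside 14.7%). Without siControl 1, siControl 2 or siCSRP2 2 the count of rises was 0, where 8, 5 and 12 of all 14884 genes rose. It was 1 (CREB5) without siCSRP2 3, where 26 of all genes rose. At an unadjusted p under 0.05, 10 members were higher (19.6%) and 3 were lower (5.88%), where 6.32% of all genes were higher and 17.4% were lower.

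**Figure D1:**
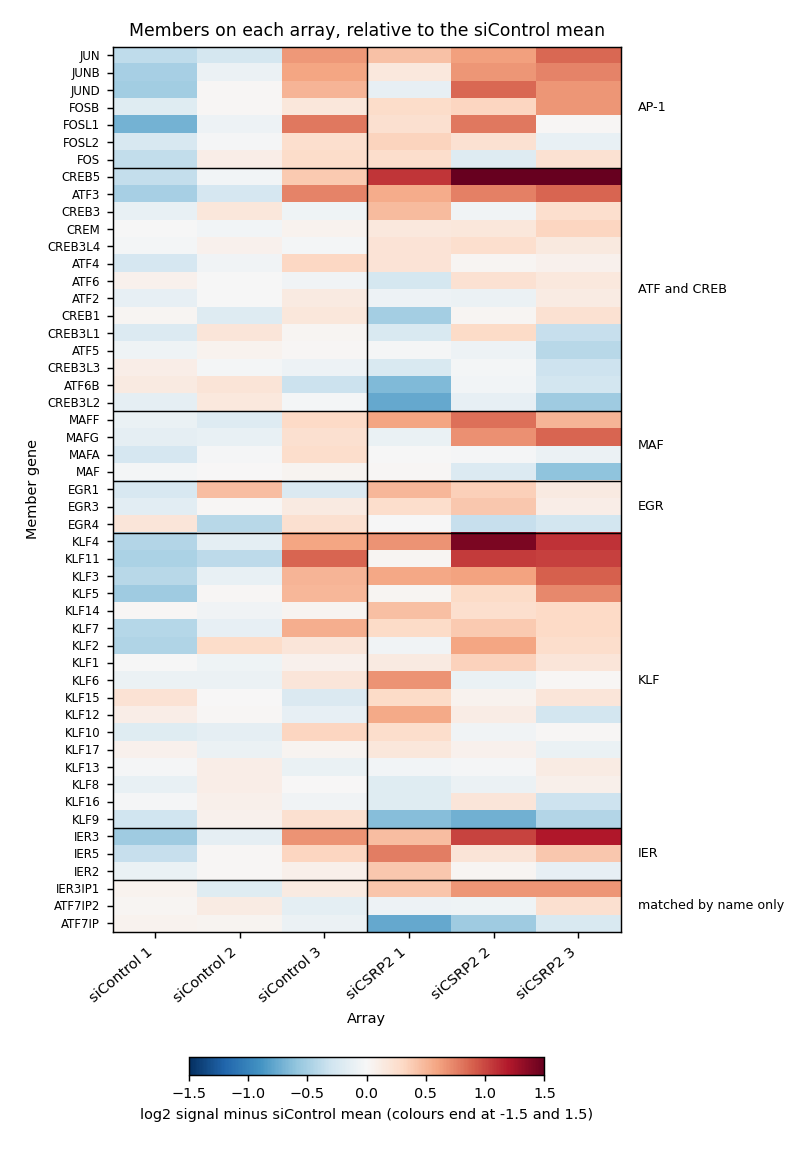
Log2 signal of each of the 51 members (rows, by family) on each of the 6 arrays (columns), minus that gene's siControl mean; red is higher and blue is lower. Red fills much of the siCSRP2 side for CREB5, KLF4, KLF3, KLF11 and IER3, and many of the same rows are red on siControl 3.

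Over all members the median difference was 0.20, and 37 of 51 (72.5%) were higher in siCSRP2, where the median of all genes was 0.02 and 53.1% of them were higher. The split was wider among genes whose mean lay above the median of all gene means (2.99): the 44 such members had a median difference of 0.21 and 70.5% were higher, while the 7442 such genes had a median of -0.15 and 34.8% were higher. The siCSRP2 arrays lay wholly above the siControl arrays for 10 members (19.6%, beside 11.5% of all genes) and wholly below for 2 members, KLF9 and ATF7IP (3.92%, beside 16.2%). The 7 members at or under the median of all gene means (ATF7IP2, CREB3L4, EGR3, KLF1, KLF8, KLF15 and KLF17) had means between 2.27 and 2.80, and none of them passed with or without the block.

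The controls were not alike for these genes. siControl 3 was the highest control for 33 members (64.7%, beside 35.0% of all genes) and siControl 1 the lowest for 32 (62.7%, beside 28.2%). The median member lay at -0.13, -0.01 and 0.17 on siControl 1, 2 and 3 relative to the siControl mean, and at 0.17, 0.19 and 0.17 on the siCSRP2 arrays. siControl 3 thus matched the siCSRP2 arrays in this median. The median over all genes stayed between -0.01 and 0.01 on every array. Between same-numbered arrays the median member differed by 0.41, 0.17 and 0.08 in pairs 1, 2 and 3. What sets siControl 3 apart was not tested.

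**Figure D2:**
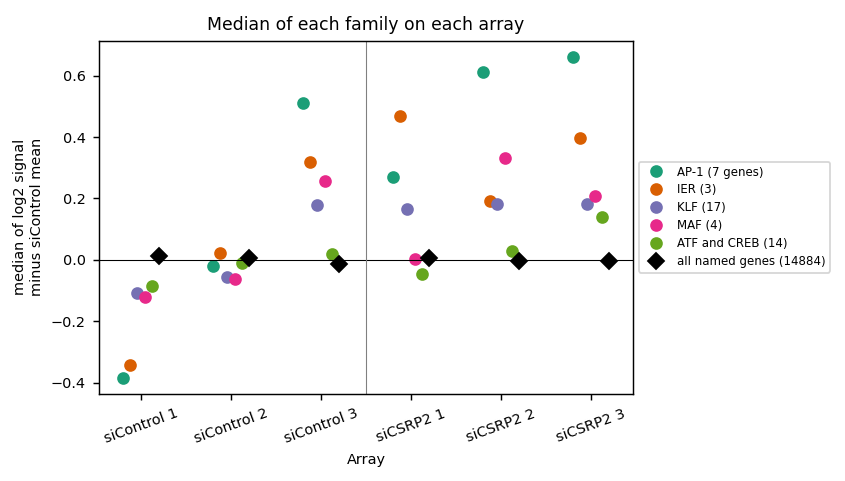
Median over each of 5 families (EGR is not drawn), and over all named genes, of log2 signal minus the siControl mean, for each of the 6 arrays. The AP-1 median runs from -0.38 on siControl 1 to 0.51 on siControl 3 and lies between 0.27 and 0.66 on the siCSRP2 arrays, while all genes stay near 0.

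The stretches just upstream of CREB5, MAFF, JUN, ATF3 and KLF4 are shown because these members rose with the replicate block and, apart from KLF4, hold a bZIP element there. They are the last 150 bases before the transcription start, from RefSeq on GRCh38.p14, 5′ to 3′ along the gene. Capitals mark the cAMP response element TGACGTCA, its variant TGACATCA and the AP-1-like pattern TGANTCA, where N is any base.
CREB5 (chr7:28685983-28686132, plus strand): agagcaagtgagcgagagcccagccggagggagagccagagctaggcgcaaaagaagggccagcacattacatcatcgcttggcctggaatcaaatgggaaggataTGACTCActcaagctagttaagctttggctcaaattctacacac
MAFF (chr22:38201844-38201993, plus strand): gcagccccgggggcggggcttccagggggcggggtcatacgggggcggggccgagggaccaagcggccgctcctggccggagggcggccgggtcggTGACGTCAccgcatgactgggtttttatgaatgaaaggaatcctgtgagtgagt
JUN (chr1:58784048-58784197, minus strand): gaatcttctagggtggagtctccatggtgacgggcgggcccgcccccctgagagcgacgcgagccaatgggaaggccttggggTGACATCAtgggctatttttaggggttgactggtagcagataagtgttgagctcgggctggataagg
ATF3 (chr1:212565257-212565406, plus strand): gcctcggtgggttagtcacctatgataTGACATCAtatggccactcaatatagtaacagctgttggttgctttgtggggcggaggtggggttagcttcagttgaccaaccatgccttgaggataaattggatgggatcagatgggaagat
KLF4 (chr9:107489770-107489919, minus strand): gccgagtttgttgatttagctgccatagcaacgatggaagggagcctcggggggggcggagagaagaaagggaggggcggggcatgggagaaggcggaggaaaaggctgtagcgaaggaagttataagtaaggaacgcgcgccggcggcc

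CREB5 has 3 starts in the table, and ATF3 and MAFF have 2 each; the start shown is the one with a match. The scan covered both strands of the 250 bases before each start, for 42 members with an entry and for all 35116 promoters. TGACGTCA was found for 6 members (CREB3L2, CREM, JUND, KLF11, MAF and MAFF), in 6 of the 72 promoters of the 42 members, where 1.65% of all promoters hold it. TGACATCA was found in 7 of the 72, from 4 members (ATF3, CREM, JUN and KLF6), beside 2.37% of all promoters. Most of these 7 were starts of CREM, and some of those overlap and hold the same match. TGANTCA was found in 4 of the 72, from 4 members (ATF5, ATF6B, CREB5 and KLF12), beside 6.57% of all promoters. The match was TGACTCA for ATF5 and CREB5 and TGATTCA for ATF6B and KLF12, so these are counts of the wider pattern. The CArG box, the element of serum response factor, was found in 2 of the 72, from EGR1 and KLF7, beside 1.16% of all promoters. The shorter TGACG, which every TGACGTCA contains, was found in 26 of the 72, from 24 members, beside 21.2% of all promoters, and is not capitalised. JUNB and FOSB also rose with the block, and of these patterns they held TGACG alone, as did KLF4. The stretches printed were thus picked largely for a match and do not stand for all members that rose. CREB3L2 holds TGACGTCA and fell with the block, while MAFF holds it and rose. A match is a run of letters and not a measured binding site.

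Among AP-1 genes all 7 had a positive difference, with a median of 0.42, where 53.1% of all genes were higher. Without the block 0 passed, where 0.8% of all genes rose and 6.54% fell. At an unadjusted p under 0.05, 2 were higher (28.6%, beside 6.32% of all genes) and 0 lower (beside 17.4%). With the block 3 rose (42.9%, beside 2.67% of all genes) and 0 fell (beside 13.1%). JUN, the central partner of AP-1, measured 7.45, 7.57 and 8.49 on siControl 1, 2 and 3 and 8.27, 8.45 and 8.70 on siCSRP2 1, 2 and 3. siControl 3 lay above siCSRP2 1 and 2, so the groups overlapped, although JUN was higher on the siCSRP2 array in 3 of 3 pairs. The difference was 0.64 (SE 0.26, adjusted p = 0.173, and 0.0241 with the block).

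JUNB, an AP-1 subunit that can restrain JUN, measured 7.29, 7.71 and 8.38 on siControl and 7.95, 8.45 and 8.54 on siCSRP2 arrays. The pairs differed by 0.67, 0.74 and 0.16, and siControl 3 lay inside the siCSRP2 range. The difference was 0.52 (SE 0.27, adjusted p = 0.282, and 0.0393 with the block). FOSB, an immediate early FOS protein, measured 3.49, 3.69 and 3.84 against 3.95, 4.0 and 4.34, with no overlap. Its difference was 0.42 (SE 0.14, adjusted p = 0.115, and 0.0346 with the block). Its other probe set gave 0.31, and there the groups overlapped, with siCSRP2 2 (3.24) just under siControl 3 (3.25).

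JUND (0.46) and the FOS-related genes FOSL1 (0.35), FOSL2 (0.15) and FOS (0.10) did not pass in either fit. FOSL1, a FOS relative linked to mesenchymal breast cancer cells, ranged from 6.15 on siControl 1 to 7.65 on siControl 3, and from 6.87 to 7.65 on the siCSRP2 arrays. The 95% interval of the FOS difference ran from -0.34 to 0.54. The second FOS probe set also gave 0.10, but its mean of 2.90 lay under the median of all gene means (2.99). It measured 2.95, 2.76 and 2.85 on siControl and 2.80, 3.07 and 2.98 on siCSRP2 arrays. The set used here measured 3.03, 3.50 and 3.68 on siControl and 3.67, 3.21 and 3.63 on siCSRP2 arrays. The sign of each same-numbered pair was opposite in the 2 sets, so the equal averages are not agreement.

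The ATF and CREB genes divided evenly, 7 higher (50%, beside 53.1% of all genes) and 7 lower, with a median of 0.02. CREB5, which encodes a bZIP protein closely related to ATF2, was the member with the largest difference. It measured 3.50, 3.81 and 4.24 on siControl 1, 2 and 3 and 4.92, 5.53 and 5.98 on siCSRP2 1, 2 and 3. The lowest siCSRP2 array lay well above the highest control, and the pairs differed by 1.41, 1.71 and 1.74. Group means were 3.85 ± 0.37 and 5.47 ± 0.53 (SD, n = 3), a 3.08-fold rise (log2 difference 1.62, SE 0.27, 95% interval 1.00 to 2.24, adjusted p = 0.0144). Its adjusted p was 0.0006 with the block. A two-sided exact permutation test returned 0.1, the smallest p that 3 against 3 arrays allow. CREB5 passed in 3 of the 6 fits that left 1 array out, with differences from 1.37 to 1.90; it did not pass without siControl 1, siControl 2 or siCSRP2 2.

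ATF3, a stress-induced member that often acts as a repressor, measured 4.79, 5.04 and 6.04 on siControl and 5.85, 6.05 and 6.16 on siCSRP2 arrays. The siCSRP2 arrays were close together, and siControl 3 lay among them. The difference was 0.73 (SE 0.28, adjusted p = 0.159, and 0.0337 with the block), and it was 1.11 without siControl 3 (adjusted p = 0.00142). ATF4, the translation-controlled regulator of the amino acid response, measured 6.88, 7.08 and 7.45 against 7.34, 7.16 and 7.20, with a difference of 0.10 and a 95% interval of -0.25 to 0.45.

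CREB3L2, a membrane-bound factor of the secretory pathway, fell with the block alone. It measured 5.35, 5.65 and 5.46 on siControl and 4.72, 5.36 and 4.95 on siCSRP2 arrays, and was lower in 3 of 3 pairs, though siCSRP2 2 lay just above siControl 1. The difference was -0.48 (SE 0.17, adjusted p = 0.128, and 0.0284 with the block). The cAMP modulator CREM was 0.22 higher with no overlap between groups, and CREB3L4 was 0.20 higher likewise, but neither passed in either fit. CREB1 (-0.09), ATF2 (-0.01), ATF6 (0.04), ATF6B (-0.33), ATF5 (-0.17), CREB3 (0.22), CREB3L1 (-0.10) and CREB3L3 (-0.19) did not pass either.

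Of the 4 MAF genes, MAFF rose (25%, beside 0.8% of all genes). MAFF encodes a small MAF protein, which has a bZIP domain and no activation domain of its own. It measured 4.40, 4.31 and 4.80 on siControl and 5.09, 5.33 and 5.01 on siCSRP2 arrays, so each siCSRP2 array lay above each control. The rise was 1.56-fold (log2 difference 0.64, SE 0.16, 95% interval 0.29 to 0.99, adjusted p = 0.0444, and 0.0298 with the block). It passed in 1 of the 6 fits that left 1 array out, the one without siControl 3 (0.79, adjusted p = 0.00471), and not in the other five. The small MAF gene MAFG was 0.48 higher (adjusted p = 0.265), and the large MAF genes MAF (-0.26) and MAFA (-0.04) did not pass.

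**Figure D3:**
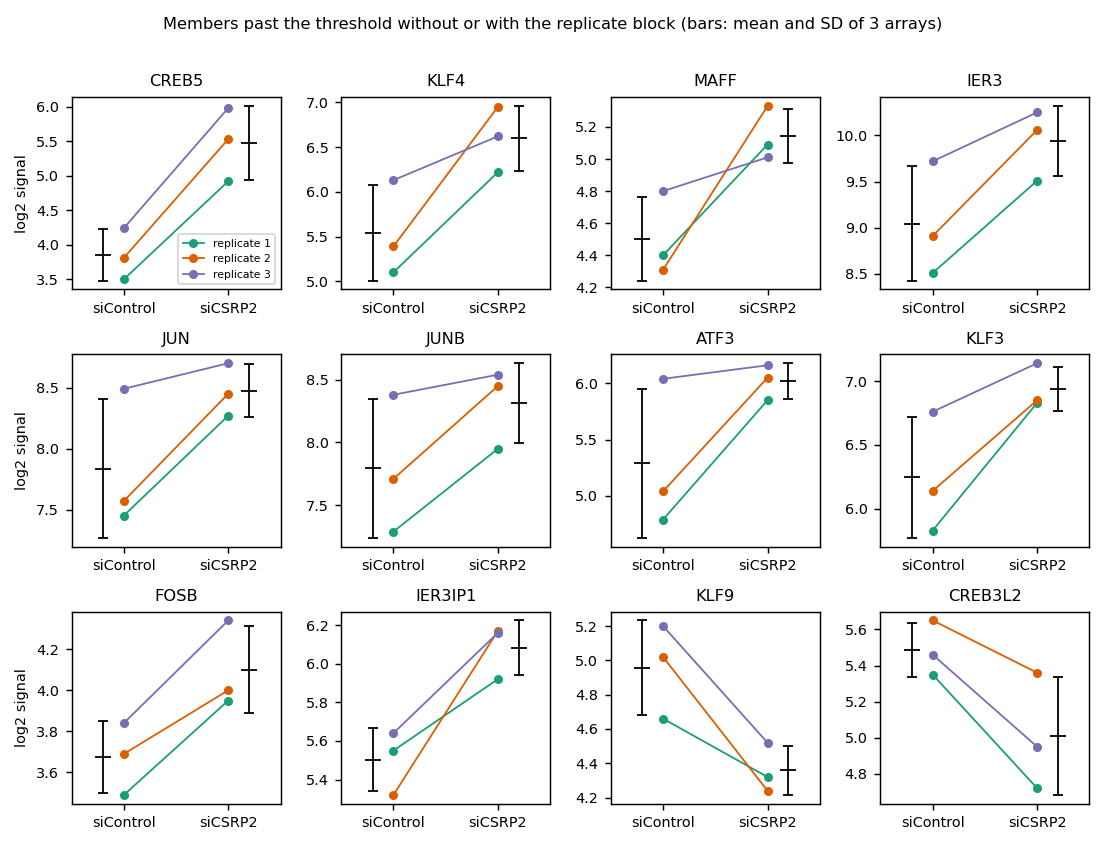
Log2 signal of the 12 members past the threshold without or with the replicate block, on siControl (left) and siCSRP2 arrays (right); lines join arrays of equal replicate number, and black bars give the mean and SD of 3 arrays. Each vertical axis has its own range. All lines rise for the 10 members that rose and fall for KLF9 and CREB3L2. For JUN, JUNB, ATF3, KLF4, KLF3, IER3 and MAFF the replicate 3 line is the flattest.

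Among the 17 KLF genes 14 had a positive difference (82.4%, beside 53.1% of all genes), with a median of 0.20. None passed without the block, where 0.8% of all genes rose and 6.54% fell. At an unadjusted p under 0.05, 3 were higher (17.6%, beside 6.32% of all genes) and 1 lower (5.88%, beside 17.4%). With the block 2 rose (11.8%, beside 2.67% of all genes) and 1 fell (5.88%, beside 13.1%). KLF4, a factor of epithelial differentiation and of pluripotency, measured 5.10, 5.39 and 6.13 on siControl and 6.22, 6.95 and 6.62 on siCSRP2 arrays. The groups did not overlap, though siControl 3 and siCSRP2 1 were nearly equal. Group means were 5.54 ± 0.53 and 6.60 ± 0.36 (SD, n = 3), a 2.08-fold difference (log2 1.06, SE 0.27, 95% interval 0.44 to 1.67, adjusted p = 0.0514, and 0.00861 with the block). The exact permutation p was 0.1. Of the 6 fits that left 1 array out, KLF4 passed in the one without siControl 3 (1.35, adjusted p = 0.00244).

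KLF3, a repressor that recruits CtBP, measured 5.83, 6.14 and 6.76 against 6.83, 6.85 and 7.14, with no overlap. Its difference was 0.69 (SE 0.22, adjusted p = 0.0967, and 0.013 with the block). KLF9, a factor induced by glucocorticoids, went the other way: it measured 4.66, 5.02 and 5.20 on siControl and 4.32, 4.24 and 4.52 on siCSRP2 arrays. Each siCSRP2 array lay below each control, and the difference was -0.60, or 1.51-fold lower (SE 0.16, adjusted p = 0.054, and 0.0155 with the block).

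KLF10 and KLF11, both induced by TGF-beta, differed from each other in pattern. KLF10 measured 7.15, 7.20 and 7.66 against 7.60, 7.29 and 7.35 (difference 0.08, 95% interval -0.29 to 0.44). KLF11 was split within the controls, at 4.29, 4.37 and 5.64, against 4.79, 5.81 and 5.79 on siCSRP2 arrays. Its difference was 0.70 (adjusted p = 0.317, and 0.0695 with the block), and 1.14 without siControl 3 (adjusted p = 0.0204). KLF14 was 0.33 higher with no overlap (adjusted p = 0.0995), and KLF5 (0.34), KLF7 (0.33), KLF2 (0.27), KLF1 (0.22), KLF6 (0.20), KLF15 (0.18), KLF12 (0.13), KLF17 (0.04), KLF13 (0.02), KLF8 (-0.07) and KLF16 (-0.10) did not pass in either fit.

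The EGR genes did not pass. EGR1, a zinc finger factor induced by growth factors, measured 6.35, 7.05 and 6.37 on siControl and 7.08, 6.95 and 6.72 on siCSRP2 arrays, and siControl 2 lay among the siCSRP2 values. The difference was 0.33 (95% interval -0.12 to 0.78, adjusted p = 0.349), and the second EGR1 probe set gave -0.07. The differences of EGR3 and EGR4 were 0.26 and -0.21.

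The 3 IER genes were all higher, with a median of 0.45, where 53.1% of all genes were higher. With the block 1 rose (33.3%, beside 2.67% of all genes) and 0 fell (beside 13.1%). IER3, a stress-induced gene that affects cell survival, measured 8.51, 8.91 and 9.72 on siControl and 9.51, 10.06 and 10.25 on siCSRP2 arrays. siControl 3 lay above siCSRP2 1, and the pairs differed by 1.00, 1.15 and 0.52. The difference was 0.89, or 1.86-fold (SE 0.30, adjusted p = 0.112, and 0.00558 with the block). IER3 has 11 probe sets with only 4 distinct profiles, several of them identical in value, so they are not separate measurements; their differences ran from 0.70 to 0.95. IER5 was 0.45 higher (adjusted p = 0.211) and IER2 0.11 higher (adjusted p = 0.705).

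Of the 3 genes matched by name alone, IER3IP1 rose. It measured 5.55, 5.32 and 5.64 against 5.92, 6.17 and 6.16, a 1.49-fold rise with no overlap (log2 difference 0.58, SE 0.13, adjusted p = 0.0339, and 0.0188 with the block). ATF7IP differed by -0.51 with no overlap (adjusted p = 0.075, and 0.0504 with the block). Leaving these 3 out, 2 of 48 members rose (4.17%, beside 0.8% of all genes) without the block. With it 9 rose (18.8%, beside 2.67% of all genes) and 2 fell (4.17%, beside 13.1%).

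**Figure D4:**
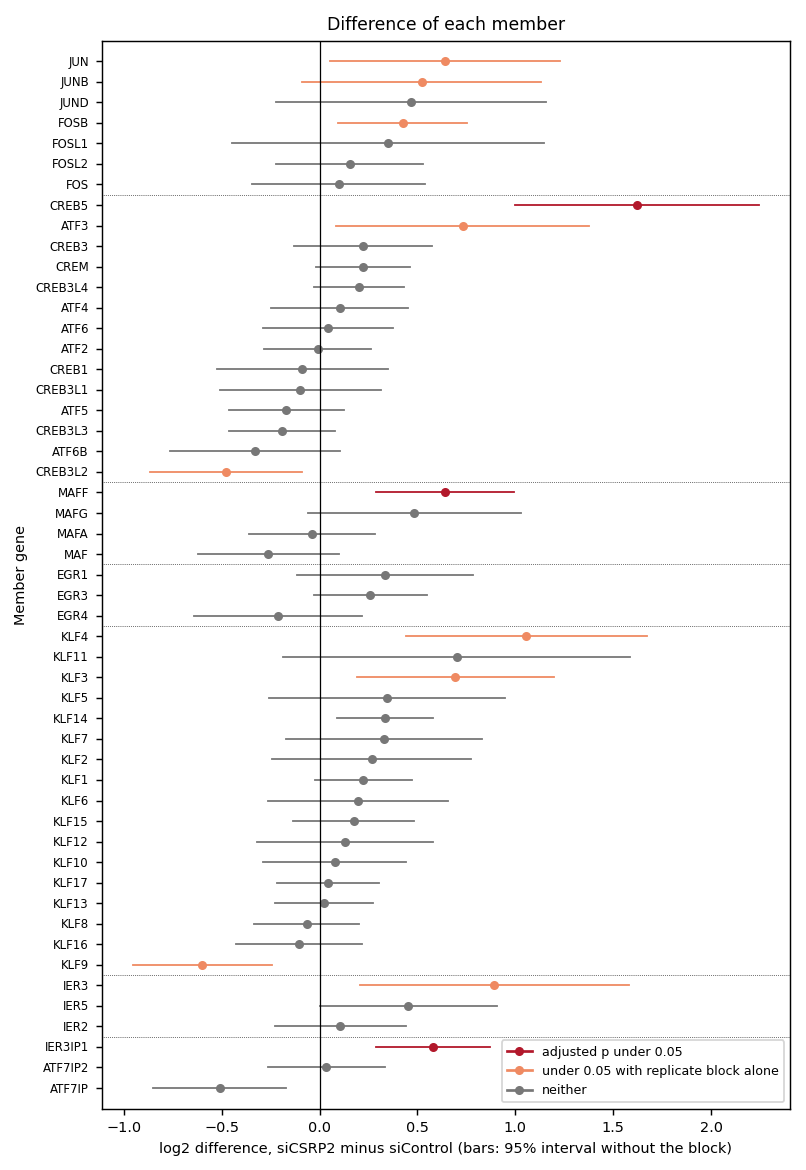
Log2 difference (siCSRP2 minus siControl) of each of the 51 members with its 95% interval from the fit without the block; dotted lines part the families in the order AP-1, ATF and CREB, MAF, EGR, KLF, IER and genes matched by name. CREB5 lies farthest to the right at 1.62 and KLF9 farthest to the left at -0.60, and most intervals of the grey members include 0.

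The genes around these factors were read from lists, each with its own counts. For comparison, 0.8% of all genes rose and 6.54% fell, and with the block 2.67% rose and 13.1% fell. At an unadjusted p under 0.05, 6.32% of all genes were higher and 17.4% lower. Of 24 other immediate early genes, 0 rose and 2 fell, 18 had a positive difference, and the median was 0.42; at an unadjusted p under 0.05, 9 were higher and 4 lower. With the block 4 rose and 2 fell. PLK2, a polo-like kinase, fell from 7.38, 7.28 and 7.40 to 6.82, 5.97 and 5.95 (difference -1.11, adjusted p = 0.0236), and the ERK phosphatase DUSP6 fell (-0.77, adjusted p = 0.0347). The nuclear protein CSRNP1 (1.24) and the receptor signalling inhibitor SPRY2 (1.07) were among those that rose with the block, at adjusted p = 0.00352 and 0.011. Without siControl 3, 15 of these 24 rose (62.5%, beside 2.87% of all genes).

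Among 7 regulators of serum response factor and ETS partners, MRTFB fell and none rose. MRTFB, an actin-regulated co-activator of serum response factor, measured 5.24, 5.37 and 4.27 on siControl and 3.84, 3.91 and 3.69 on siCSRP2 arrays (difference -1.15, SE 0.26, adjusted p = 0.0351). Its relative MRTFA went from 4.60, 5.06 and 5.37 to 5.12, 5.52 and 5.60 and rose with the block (0.40, adjusted p = 0.0492).

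Of 12 MAP kinase pathway genes 0 passed without the block (2 higher and 4 lower at an unadjusted p under 0.05), and with it 1 rose and 4 fell. MAP2K1, the kinase that activates ERK, rose with the block alone (0.75, adjusted p = 0.118 without it and 0.0208 with it). MAPK9 (-0.50), MAP2K6 (-0.82) and HRAS (-0.53) were among those that fell with the block. Of 6 CREB co-activators and cAMP kinase genes, EP300 rose with the block (0.60, adjusted p = 0.0105) and none passed without it. Among the 9 SP factors, zinc finger relatives of the KLF genes, none passed in either fit; 3 were higher and 0 lower at an unadjusted p under 0.05.

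Of 12 other bZIP factors measured, 3 fell, 0 rose and 9 did not pass (2 were higher and 4 lower at an unadjusted p under 0.05). The difference was negative for 9 and positive for 3 (median -0.16). XBP1, a factor of the unfolded protein response, was among the positive ones (0.35, adjusted p = 0.122) and rose without siControl 3 (adjusted p = 0.0458). DBP, a circadian activator, fell 3.61-fold, from 6.29, 6.56 and 6.15 to 4.83, 4.22 and 4.38 (difference -1.85, SE 0.18, adjusted p = 0.00265). NFE2L3 (-0.87, adjusted p = 0.0108) and NFE2L1 (-0.42, adjusted p = 0.0388), cap-n-collar factors that pair with small MAF proteins, fell as well, and CREBL2 fell with the block (-0.71, adjusted p = 0.00623).

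Known target genes of AP-1 did not move one way. Of 14, the collagenases MMP13 (-3.59) and MMP1 (-1.43) and the chemokine CCL2 (-2.66) fell, at adjusted p = 0.00228, 0.0298 and 0.0418, and 2 others rose with the block, among them the prostaglandin synthase PTGS2 (1.54, adjusted p = 0.00241). PTGS2 measured 7.05, 7.42 and 8.90 on siControl and 8.57, 9.53 and 9.90 on siCSRP2 arrays, so that siControl 3 again lay among the siCSRP2 values, as for JUN and ATF3. MMP13 measured 5.72, 6.40 and 7.05 against 2.49, 2.73 and 3.17, and siControl 3 was its highest value. The list median was -0.14, and 9 of the 14 differences were negative. Without the block 0 of the 14 rose, and at an unadjusted p under 0.05, 2 were higher and 5 lower.

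ATF4 targets were divided too, with a median of -0.05 over 16 genes. ASNS, asparagine synthetase, rose from 5.44, 5.59 and 5.83 to 6.12, 6.62 and 6.46 (difference 0.78, adjusted p = 0.026), and the hormone FGF21 rose (1.48, adjusted p = 0.0263). TRIB3, a pseudokinase that restrains ATF4, fell (-0.58, adjusted p = 0.0249), and STC2 fell (-0.48, adjusted p = 0.0315). The members ATF3 and ATF5 are also on this list.

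**Figure D5:**
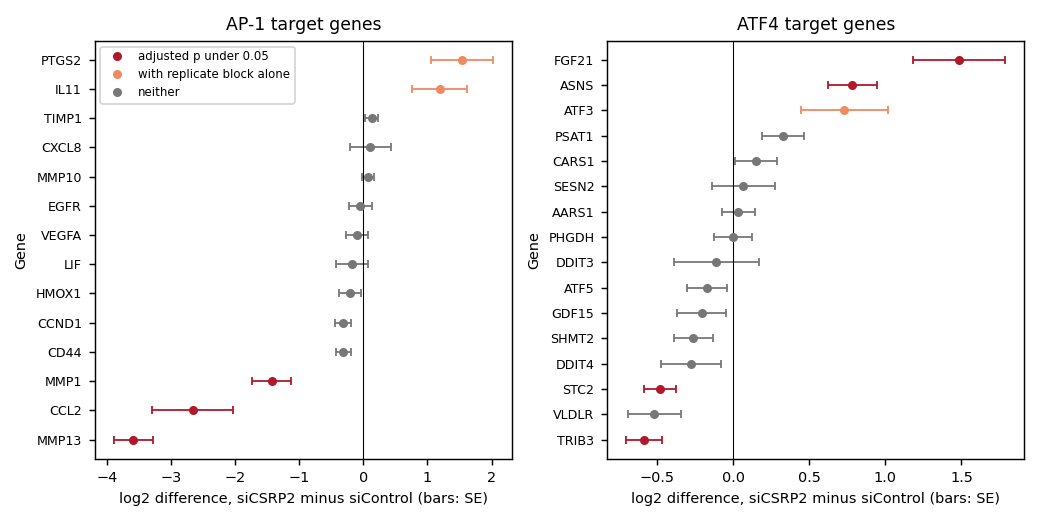
Log2 difference (siCSRP2 minus siControl) with its SE for the 14 measured AP-1 target genes (left) and the 16 measured ATF4 target genes (right), coloured by whether they passed without or with the replicate block. In both panels genes that passed in either fit lie on either side of 0. On the left MMP13 lies at -3.59 and PTGS2, which passed with the block alone, at 1.54. On the right TRIB3 lies at -0.58 and FGF21 at 1.48.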

How the data were processed

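6 Affymetrix HuGene 2.0 arrays of Hs578T total RNA were used, grouped by sample title. The authors deposited log2 values, 1 per probe set and array; base 2 was inferred from their range. Per the submitters' processing notes Partek was used, with no role named; how background, summary and scaling were handled, and the build, is not given in the sources used here. No depth exists for arrays, and their number limits the precision.

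The platform annotation gave a gene to 16098 of 53617 probe sets. The probe set with the highest mean stood for a gene. limma 3.58.1 in R 4.3.3 (lmFit, eBayes) compared the groups over 14884 genes, with group as the only term, Benjamini-Hochberg adjusted, and was tested on simulated data. The replicate block was an alternative: all 3 same-numbered correlations of deviations from group means passed 0.1, from the data and not the labels. Over the members alone they were 0.37, 0.01 and 0.33. Exact permutation tests were two-sided. Other alternatives were scaling, dim-gene filters, array weights and leaving out each array.

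Members and lists were chosen with earlier results of these data known. Members with all 6 values are CREB5, KLF4, those past the threshold in either fit, those with a difference of at least 0.8 in size, and the member with the highest mean in each family; KLF11 was added after its values were seen. Other genes are named where they passed in either fit, at most 4 per list by smallest adjusted p; the leukocyte and endothelial markers are named as a reference level, and XBP1 was added after its values were seen. The planned olfactory receptor reference had 1 named gene and was not used. RefSeq promoters (GRCh38.p14) matched 42 of 51 members.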

Additional observations from a re-analysis of the deposited data

How the results depend on the processing

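Of 18 alternative fits, 3 were chosen after seeing the data: those joining the block with quantile normalization or median centring, or leaving out pair 3. The number of members that rose was 3 as reported, where 119 of all 14884 genes rose. It was 10 with the replicate block (398 of all genes) and 15 with the block after quantile normalization (524). It was 10 with the block after median centring (405) and 19 with the block without pair 3 (832). Array weights, which weighted siControl 3 least (0.492), gave 12 (597). The number that fell was 0 as reported, where 974 of all genes fell. It was 2 with the block (1950 of all genes), with the block after median centring (1861) and with array weights (2327). It was 4 with the block without pair 3 (2687). With the dimmest 25% or 50% left out it was 1, beside 1068 of 11163 and 1141 of 7442 genes. With 1 array left out, rises ran from 0 to 11 and falls from 0 to 1. Over all genes, rises in those fits ran from 5 to 427 and falls from 86 to 2193. Rises numbered 4 under quantile or cyclic loess scaling (210 and 197 of all genes). They numbered 2 (CREB5 and KLF4) under a trended robust variance (142 of all genes). The median member difference, 0.20 as reported, ran from 0.08 (without siControl 1) to 0.28 (with the block without pair 3) over the 18 fits. None of the 15 members that the naming rule gives in full reversed a call in the fits run; KLF11 was not among those 15. CREB5 passed in 15 of 18 alternatives, IER3IP1 in 13, MAFF in 12, KLF4 in 11, KLF9, JUN, JUNB, ATF3, IER3 and KLF3 in 6 each, FOSB in 5 and CREB3L2 in 3. Falls made up 89.1% of all calls as reported, 76.0% after quantile normalization and 77.7% after cyclic loess. A member at or under the median of all gene means may be near background, where a fold understates the change.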
